A study of Mus musculus with 2 samples.

Results

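The enzymes described here carry glucose from its first phosphorylation down to phosphoenolpyruvate, the substrate of pyruvate kinase, and also cover the pentose phosphate pathway, glycogen turnover and the first step of fructose use. They are 36 named genes, matched by symbol among 22350 symbols in the deposited files, and all 36 had a value in both libraries. The libraries hold messenger RNA of colon epithelial cells from C57BL/6 mice, 1 library from wild type mice and 1 from Pkm2-/- mice. Both genotypes had received 2.5% dextran sulfate sodium (DSS) for 3 days, a polymer that injures the colon lining, and untreated mice were not analysed here. The sources used here give neither the number of animals behind a library nor the way, or the cells, in which Pkm2 was deleted.

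Glycolysis splits glucose into pyruvate. Hexokinases trap glucose inside the cell, phosphofructokinase commits it to breakdown, and the payoff enzymes from glyceraldehyde-3-phosphate dehydrogenase to enolase feed pyruvate kinase, the last enzyme of the pathway. Pyruvate kinase M2, the product of the targeted isoform, is the form found in many dividing cells. Upstream intermediates can also leave glycolysis through the pentose phosphate pathway, which makes NADPH and ribose phosphate, or through glycogen and glycerol phosphate.

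Levels are FPKM, the fragments of a transcript divided by its length and by the sequencing depth, so that levels of different genes can be set side by side. Where a pair of FPKM values is given, the wild type library comes first. The files listed 20793 genes in the wild type and 20604 in the Pkm2-/- library, at a depth of about 18900000 and 21000000 fragments as judged from their lowest values. Each genotype had a single library, so nothing could be tested and every difference is between these 2 libraries, and the 95% counting interval beside a fold covers counting error only, not animals or preparations. In bulk RNA, fewer cells of a type and less RNA per cell cannot be told apart.

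As a group the enzymes were abundant and close in level between the libraries. Their FPKM summed to 3497 and 3528, which was 0.621% and 0.661% of all FPKM. The median enzyme stood at 38.1 and 39.5 FPKM, against 10.3 and 10.9 for the 12429 genes that averaged 1 FPKM or more over the libraries. In the wild type library 9 of the enzymes were above 100 FPKM, 18 lay between 10 and 100, 8 between 1 and 10, and Eno2 alone was below 1. Gapdh and Aldoa together made up 38.3% and 37.7% of the group's sum.

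**Figure D1:**
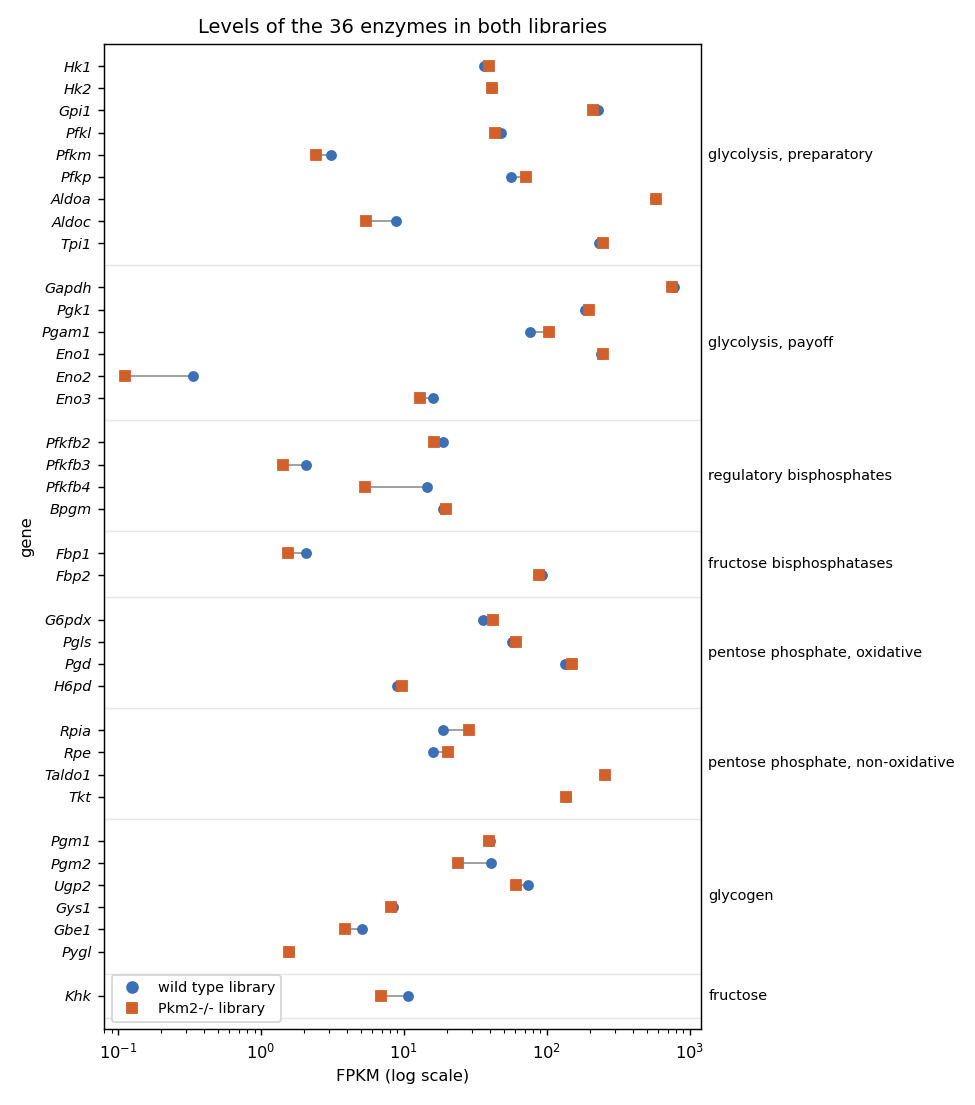
Levels of the 36 enzymes in FPKM on a log axis, grouped by role, with 1 circle for the wild type library and 1 square for the Pkm2-/- library. Most pairs overlap, from Gapdh at 771 and 752 FPKM down to Pygl at 1.57 and 1.56. Pfkfb4, Pgm2, Aldoc and Khk are visibly lower in the Pkm2-/- library, as is Eno2 at 0.336 and 0.112 FPKM, and Rpia and Pgam1 are higher.

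Differences were sized on the log2 ratio of FPKM + 1, Pkm2-/- over wild type, for genes that averaged 1 FPKM or more. Of the enzymes 35 passed that limit, and Eno2 did not. Their median log2 ratio was -0.01, beside 0.06 over all genes, and 26 of 35 (74.3%) lay between 20% lower and 25% higher, beside 72.1% of all genes. On this scale 3 enzymes were at least 25% higher in the Pkm2-/- library, against a background of 15.7% of all genes, and 6 were at least 20% lower, the same fold in the other direction, against 12.2%. At 1.5-fold, 1 was higher (background 4.46%) and 3 were lower (background 5.29%). At 2-fold, 0 were higher (background 1.42%) and 1 was lower (background 1.90%). The shares of the enzymes were 8.57% and 17.1% at the first limit and 2.86% and 8.57% at 1.5-fold.

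The higher enzymes were Rpia, Pgam1 and Pfkp, and the lower ones were Pfkfb4, Pgm2, Aldoc, Khk, Pfkfb3 and Gbe1. Just short of the first limit were Rpe, 1.247-fold higher, and Eno3, 1.214-fold lower on the same scale. Close behind Eno3 on the lower side were Ugp2 at 1.210-fold, Pfkm at 1.198-fold and Fbp1 at 1.196-fold. Rpia was at 1.505-fold, Aldoc at 1.524-fold and Khk at 1.487-fold, all close to the 1.5-fold line. With the libraries set to equal medians or equal upper quartiles, or with a pseudocount of 5, no enzyme was 1.5-fold higher. Equal medians, and equal upper quartiles, also turned the 3 higher and 6 lower enzymes of the first limit into 2 higher and 8 lower.

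**Figure D2:**
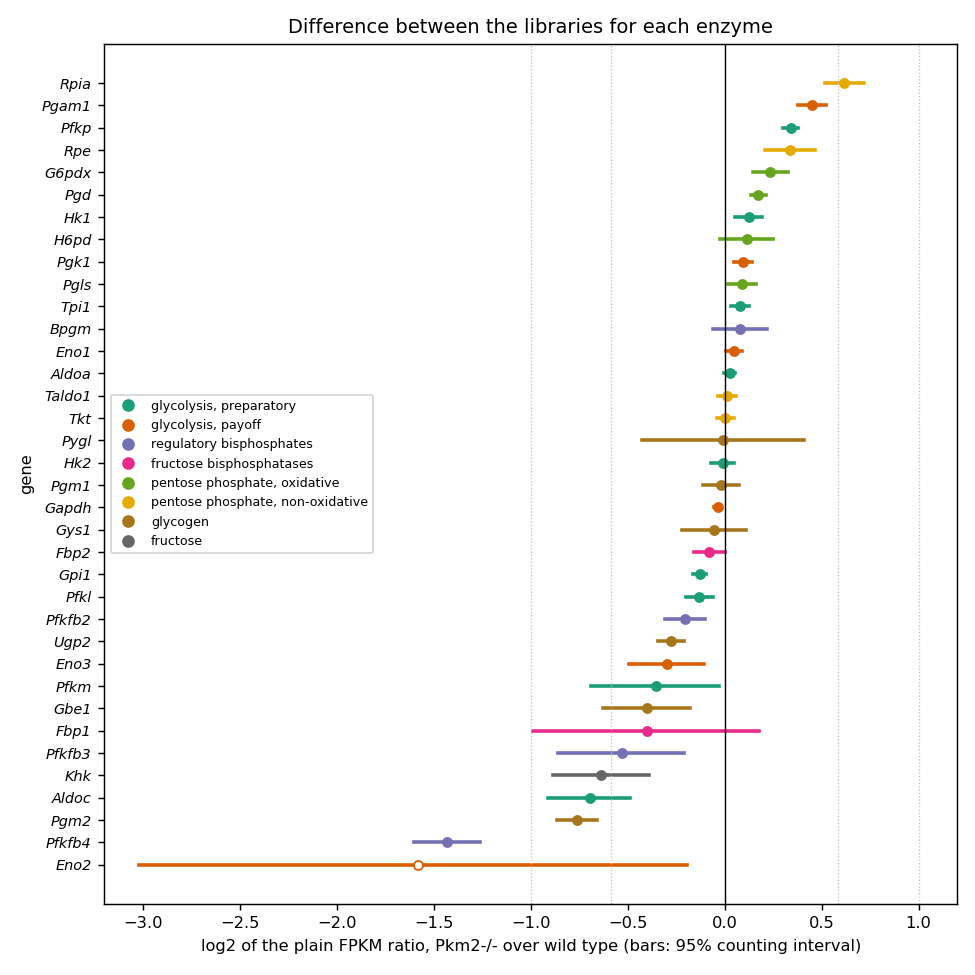
Log2 of the plain FPKM ratio, Pkm2-/- over wild type, for each of the 36 enzymes in rank order, coloured by role. Horizontal bars are 95% counting intervals, dotted lines mark 1.5-fold and 2-fold, and the open circle is Eno2, which was below 1 FPKM. Pfkfb4 and Eno2 lie past the 2-fold line, and the interval of Eno2, from 18 and 7 fragments, is the widest.

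The promoters of the enzymes with the lowest and the highest ratios are printed here because hypoxia-inducible factor (HIF) is a known regulator of many glycolytic genes and binds a short core in their promoters. Each sequence holds the 250 bases before a RefSeq transcript start on GRCm38.p6, read 5′ to 3′ on the gene's strand. Capitals mark matches to the core ACGTG or GCGTG, or to either on the opposite strand. Pfkfb4 (chr9:108991652-108991901, plus strand) and Pgm2 (chr4:99929201-99929450, plus strand) had the lowest ratios of the 35 enzymes measured. Rpia (chr6:70792176-70792425, minus strand) and Pgam1 (chr19:41911621-41911870, plus strand) had the highest.
Pfkfb4: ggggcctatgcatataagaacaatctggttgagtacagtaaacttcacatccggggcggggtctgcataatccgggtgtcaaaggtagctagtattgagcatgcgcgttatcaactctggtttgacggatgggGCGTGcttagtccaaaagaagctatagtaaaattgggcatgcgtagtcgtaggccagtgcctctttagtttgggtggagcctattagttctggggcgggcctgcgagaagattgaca
Pgm2: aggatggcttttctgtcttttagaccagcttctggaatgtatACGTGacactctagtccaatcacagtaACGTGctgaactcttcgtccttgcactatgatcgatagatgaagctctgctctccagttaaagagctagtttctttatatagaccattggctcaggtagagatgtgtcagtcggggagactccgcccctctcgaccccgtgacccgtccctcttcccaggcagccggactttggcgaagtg
Rpia: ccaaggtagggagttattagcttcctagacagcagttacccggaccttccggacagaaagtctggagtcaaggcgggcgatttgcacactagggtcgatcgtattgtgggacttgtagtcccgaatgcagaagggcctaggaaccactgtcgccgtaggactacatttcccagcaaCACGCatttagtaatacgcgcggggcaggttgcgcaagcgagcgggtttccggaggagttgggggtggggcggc
Pgam1: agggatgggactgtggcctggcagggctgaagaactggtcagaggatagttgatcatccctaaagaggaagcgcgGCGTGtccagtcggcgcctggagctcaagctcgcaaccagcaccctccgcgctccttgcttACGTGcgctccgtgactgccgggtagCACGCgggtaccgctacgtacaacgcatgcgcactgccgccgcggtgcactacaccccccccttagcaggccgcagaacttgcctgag

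The core occurred once in the Pfkfb4 and Rpia windows, at 2 places in that of Pgm2 and at 3 in that of Pgam1. All 36 enzymes matched a promoter entry, with 50 windows in total, and 36 of these windows (72.0%) in 27 genes held the core. The share was 38.6% over all 32851 promoter windows and 55.9% over the 11516 windows of genes that averaged 1 FPKM or more. Windows of the same gene can overlap, as some of Aldoa and Eno1 do, so a site can count more than once. The share of all genes with the core was not counted. Median GC content was 57.8% in the enzymes' windows, 52.4% in all windows and 59.6% in those of expressed genes. The E-box CACGTG, which contains the core ACGTG, was found in 10% of the enzymes' windows, 6.02% of all windows and 8.34% of those of expressed genes. A match is a stretch of letters and not evidence of binding.

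The first steps of glycolysis were close in both libraries, with 9 enzymes summing to 1223 and 1236 FPKM, 4 of them above 0 in log2 ratio and 5 below. The hexokinase genes Hk1 (36.3 and 39.5 FPKM) and Hk2 (41.6 and 41.3 FPKM), whose products phosphorylate glucose, contributed about equally. Gpi1, the glucose-6-phosphate isomerase, stood at 229 and 209.7 FPKM. Tpi1, the triosephosphate isomerase, stood at 233 and 246 FPKM. Each of these 4 differed by less than 10% between the libraries.

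Phosphofructokinase is built from 3 gene products, and their proportions differed. The platelet-type gene Pfkp stood at 56.2 and 71.1 FPKM, 1.27-fold higher in the Pkm2-/- library (95% counting interval 1.232 to 1.3002). The liver-type gene Pfkl stood at 47.6 and 43.5 FPKM, 1.09-fold lower (1.04 to 1.15). The muscle-type gene Pfkm was a minor form at 3.09 and 2.41 FPKM. The share of Pfkp in the summed level of the family was therefore 52.6% in the wild type and 60.8% in the Pkm2-/- library, while that of Pfkl was 44.6% and 37.2%. Such a share is taken within a library and does not depend on how the libraries are scaled to each other. Pfkp overlaps Pitrm1 on the opposite strand over 5.58% of its exonic bases, and Pitrm1 stood at 11.2 and 11.8 FPKM.

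Aldolase cleaves fructose-1,6-bisphosphate. Aldoa stood at 567 and 577 FPKM, 98.5% and 99.1% of the sum of Aldoa and Aldoc. The brain-type gene Aldoc (chromosome 11, 78322968 to 78327781 on GRCm38) stood at 8.75 and 5.40 FPKM, 1.62-fold lower in the Pkm2-/- library (95% counting interval 1.40 to 1.88). It made up 1.52% and 0.927% of that sum.

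Of the 5 payoff enzymes measured, Pgam1 alone was past the limit of 25% higher or 20% lower. Gapdh, glyceraldehyde-3-phosphate dehydrogenase, stood at 771 and 752 FPKM. Pgk1, phosphoglycerate kinase, stood at 184 and 196 FPKM. Eno1, the general enolase, stood at 241 and 249 FPKM. These differed by at most 6.74%, whereas Pgam1, the phosphoglycerate mutase between Pgk1 and Eno1 in the pathway, stood at 76.0 and 104 FPKM, 1.36-fold higher in the Pkm2-/- library (95% counting interval 1.298 to 1.435). Pgam1 lies on chromosome 19, 41911923 to 41918660, and 91.9% of genes had a ratio at or below its own.

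Of the other enolase genes, the muscle-type Eno3 stood at 15.9 and 12.9 FPKM, 6.19% and 4.94% of the enolase sum. The neuron-type Eno2 was listed at 0.336 and 0.112 FPKM, which amounts to 18 and 7 fragments. Markers of neurons and glia were low in both libraries, with 5 of 5 genes listed at a summed level of 3.20 and 2.22 FPKM. Skeletal muscle markers summed to 5.06 and 4.40 FPKM, nearly all of it Acta1, with Myh4 unlisted and Ckm at 0 and 0.101 FPKM.

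Several of these genes have processed pseudogenes that can take fragments from them. Outside their own locus, Gapdh had 43 annotated genes with at least 50% of their 31-base words in its transcripts, 41 of them listed, with FPKM summing to 315 and 321. That is 40.8% and 42.6% of the level of Gapdh itself, so the value of Gapdh is uncertain, although the share was similar in both libraries. The same sum was 5.30 and 5.80 FPKM for Pgk1, 3.83 and 3.88 for Pgam1 and 4.50 and 5.59 for Eno1, at most 5.03% of each gene.

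Placed in pathway order with the isozymes summed, the 9 steps before pyruvate kinase ran from 1.13-fold lower, at hexokinase, to 1.36-fold higher, at phosphoglycerate mutase, in the Pkm2-/- library. The pyruvate kinase step, Pkm and Pklr together, stood at 309.5 and 114 FPKM, 2.71-fold lower. It was the third most abundant step in the wild type and the eighth in the Pkm2-/- library. The enolase step directly before it had 0.831 times the pyruvate kinase level in the wild type library and 2.29 times that level in the Pkm2-/- library. Set among the 36 enzymes, Pkm was exceeded by 2 of them, Gapdh and Aldoa, in the wild type library and by 11 in the Pkm2-/- library. Pkm is the targeted gene, and its gene-level value does not separate its isoforms.

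**Figure D3:**
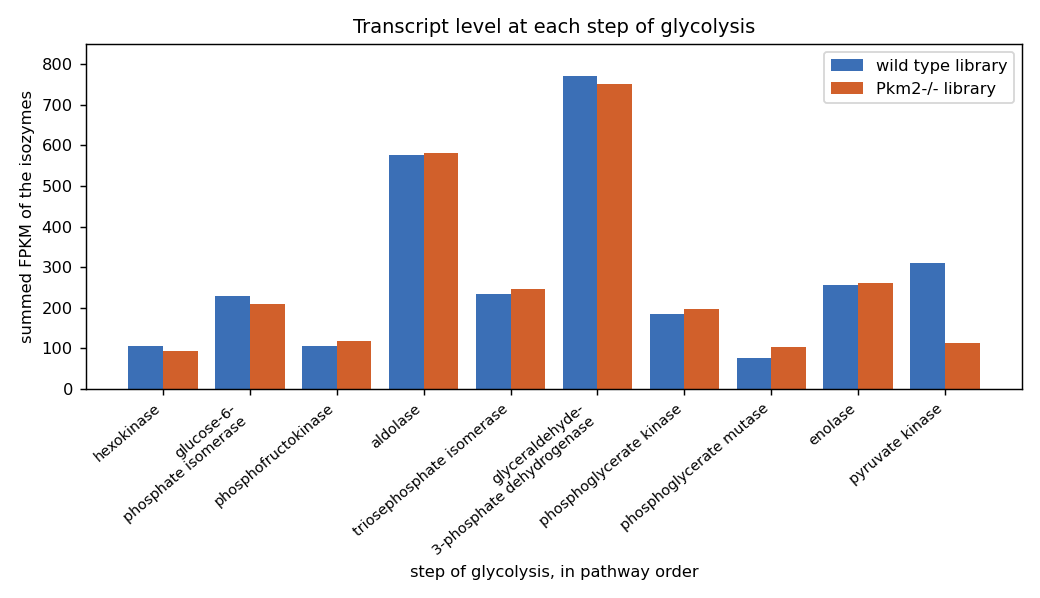
Summed FPKM of the isozymes at each step of glycolysis in pathway order, with 1 bar per library and Aldoa and Aldoc as the aldolase step. The 9 upstream steps run from 1.13-fold lower, at hexokinase, to 1.36-fold higher, at phosphoglycerate mutase, in the Pkm2-/- library. Pyruvate kinase, at 309.5 and 114 FPKM, is the step with the largest difference.

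Fructose-2,6-bisphosphate, the strongest activator of phosphofructokinase, is set by the Pfkfb enzymes, of which Pfkfb4 and Pfkfb3 were past the 20% limit on the lower side and Pfkfb2 was not. Pfkfb4 (ENSMUSG00000025648, chromosome 9, 108991778 to 109032228) stood at 14.5 and 5.36 FPKM, 2.70-fold lower (95% counting interval 2.40 to 3.04). It was the only one of the 35 measured enzymes at least 2-fold apart, with a log2 ratio of -1.28 on the FPKM + 1 scale and -0.91 with a pseudocount of 5, which is under 2-fold, and 1.17% of all genes had a ratio at or below its own. Pfkfb3, a form with high kinase activity, stood at 2.07 and 1.43 FPKM, 1.45-fold lower (1.16 to 1.81). Pfkfb2, the heart-type form, stood at 18.9 and 16.4 FPKM, 1.15-fold lower (1.07 to 1.24), and the liver-type Pfkfb1, outside the 36, at 1.251 and 1.44 FPKM. The family sum was 36.6 and 24.6 FPKM, 1.49-fold lower. Pfkfb2 made up 51.5% of it in the wild type and 66.5% in the Pkm2-/- library, and Pfkfb4 39.5% and 21.8%.

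Bpgm makes 2,3-bisphosphoglycerate, the compound that lowers the oxygen affinity of haemoglobin in red cells. It stood at 18.6 and 19.6 FPKM, a difference within counting error (95% counting interval of the ratio 0.957 to 1.16). Red cell markers (5 of 5 listed) summed to 24.5 FPKM in the wild type and 1.91 FPKM in the Pkm2-/- library, with Hbb-bs at 8.99 and 0.311 FPKM. The part of red cells in the level of Bpgm was not tested.

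Fructose-1,6-bisphosphatase reverses the phosphofructokinase step. Fbp2, known as the muscle form, made up nearly all of it at 93.0 and 88.1 FPKM, whereas Fbp1, the liver form, stood at 2.05 and 1.55 FPKM. Both ratios had counting intervals that included 1. Fbp2 exceeded Fbp1 45.3-fold in the wild type and 56.7-fold in the Pkm2-/- library, although the genes are neighbours on chromosome 13 with 6330 bases between them.

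**Figure D4:**
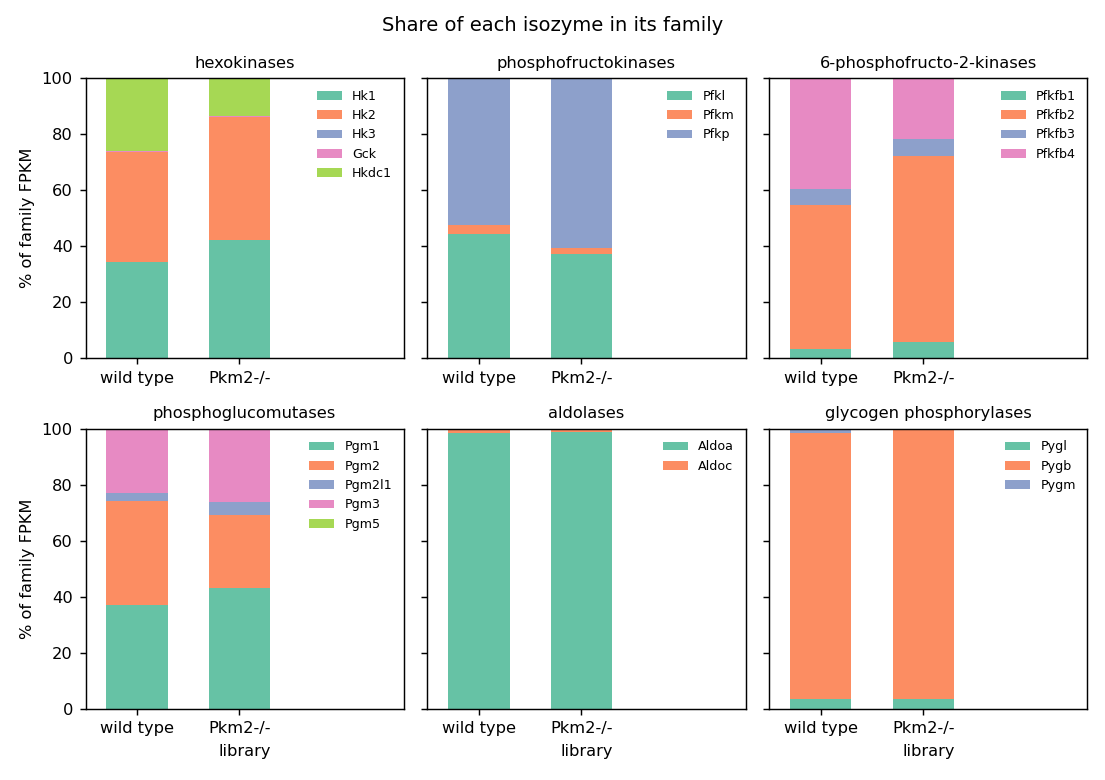
Percent of the summed FPKM of 6 isozyme families held by each gene, with 1 stacked bar per library. Hkdc1, Pfkfb4 and Pgm2 take a smaller share of their families in the Pkm2-/- library, at 13.5%, 21.8% and 26.2%, than in the wild type library, at 26.0%, 39.5% and 37.4%, while Aldoa stays far above Aldoc and glycogen phosphorylase keeps 1 dominant form.

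The 8 pentose phosphate genes all had ratios above 0, as did 58.8% of all genes, and their median log2 ratio was 0.14. Of these, 6 lay above the median of all genes. Taldo1 and Tkt were nearly equal in both libraries, and their ratios turned below 0 with the libraries set to equal medians or equal upper quartiles.

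In the oxidative branch, which makes NADPH, all differences were under 20%. G6pdx, the glucose-6-phosphate dehydrogenase that controls entry, stood at 35.6 and 41.9 FPKM, 1.18-fold higher in the Pkm2-/- library (95% counting interval 1.105 to 1.251). Pgd, the second NADPH-producing enzyme, stood at 133 and 149.95 FPKM, 1.13-fold higher (1.10 to 1.16). Pgls, the lactonase between them, stood at 57.1 and 60.8 FPKM, and H6pd, the enzyme of the endoplasmic reticulum, at 8.92 and 9.66 FPKM. G6pdx shares 13.6% of its exonic bases with Ikbkg on the opposite strand (14.1 and 12.6 FPKM), and Pgls 20.6% with Fam129c on the same strand (1.02 and 0.643 FPKM).

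In the non-oxidative branch Rpia was past the 25% limit, Rpe was just short of it, and Taldo1 and Tkt differed by little. Rpia, the ribose-5-phosphate isomerase (ENSMUSG00000053604, chromosome 6, 70765720 to 70792232), stood at 18.7 and 28.7 FPKM, 1.53-fold higher in the Pkm2-/- library (95% counting interval 1.43 to 1.64). It had the highest ratio of the group, and 95.6% of genes had a ratio at or below its own. Rpe, the epimerase acting on the same substrate, stood at 16.04 and 20.3 FPKM, 1.26-fold higher (1.15 to 1.38). Taldo1, transaldolase, stood at 252 and 254 FPKM, and Tkt, transketolase, at 136 and 136 FPKM. Rpe shares 17.9% of its exonic bases with Kansl1l on the opposite strand (3.49 and 3.38 FPKM).

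The 6 genes grouped under glycogen, with Pgm1 among them by its symbol, all had ratios below 0, as did 41.2% of all genes. For Pgm1, Gys1 and Pygl the counting interval of the ratio included 1. Pgm2 (ENSMUSG00000025791, chromosome 4, 99929414 to 99987294) stood at 40.5 and 23.9 FPKM, 1.69-fold lower in the Pkm2-/- library (95% counting interval 1.58 to 1.82). It is listed under the symbol Pgm1 in RefSeq and is the counterpart of human PGM1, the phosphoglucomutase that links glucose-6-phosphate and glucose-1-phosphate. The gene that the files call Pgm1, on chromosome 5, is the counterpart of human PGM2, which acts mainly on pentose phosphates. It stood at 40.02 and 39.5 FPKM. The level of Pgm1 was 0.987 times that of Pgm2 in the wild type library and 1.65 times that of Pgm2 in the Pkm2-/- library. Pgm2 shares 13.6% of its exonic bases with Itgb3bp on the opposite strand, which stood at 2.21 and 2.11 FPKM.

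Of the later glycogen enzymes Gbe1 was past the 20% limit on the FPKM + 1 scale, and Ugp2, Gys1 and Pygl were not. Ugp2, which makes UDP-glucose, stood at 73.4 and 60.5 FPKM, 1.21-fold lower (95% counting interval 1.16 to 1.27). Gbe1, the branching enzyme, stood at 5.08 and 3.85 FPKM, 1.32-fold lower (1.13 to 1.55). Gys1, glycogen synthase, stood at 8.37 and 8.06 FPKM and Pygl, the liver-type phosphorylase, at 1.57 and 1.56 FPKM, both within counting error. Gys1 shares 6.47% of its exonic bases with Ruvbl2 on the opposite strand, which stood at 23.1 and 30.7 FPKM, and the part of such fragments in the value of Gys1 was not tested. Pygl held only 3.57% and 3.55% of the phosphorylase sum, nearly all of which came from the brain-type gene Pygb, outside the 36, at 41.9 and 42.3 FPKM.

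Khk, ketohexokinase, phosphorylates fructose. It lies on chromosome 5, 30921431 to 30931248, and stood at 10.7 and 6.90 FPKM, 1.56-fold lower in the Pkm2-/- library (95% counting interval 1.31 to 1.85). Tkfc, a triokinase that acts later in fructose use, stood at 10.1 and 7.29 FPKM, 1.39-fold lower (1.22 to 1.58). Sord, which makes fructose from sorbitol, stood at 49.3 and 36.6 FPKM, 1.35-fold lower (1.27 to 1.44). These 3 genes were set side by side after their values were seen.

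**Figure D5:**
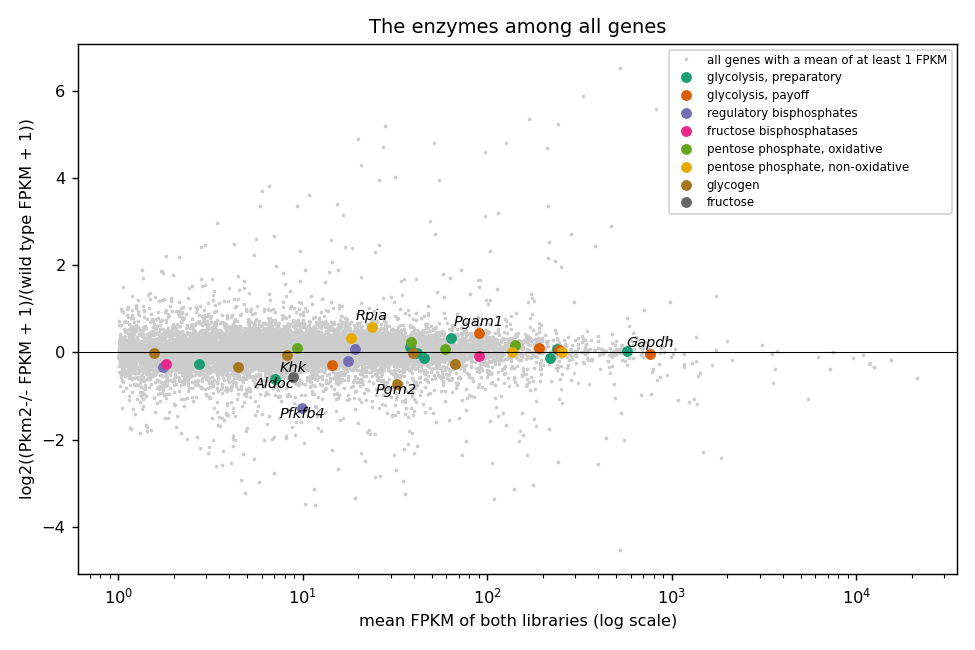
Log2 ratio of FPKM + 1 against the mean FPKM on a log axis, for the 12429 genes that averaged 1 FPKM or more (grey) and the 35 measured enzymes (coloured by role). The enzymes lie along the middle of the cloud, from Pfkfb4 at -1.28 to Rpia at 0.59, and their median is -0.01.

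Other genes of the same pathways, 52 in number, were as a group also close in level, summing to 1101 and 1077 FPKM. Of these 34 were measured, with a median log2 ratio of -0.00. On the FPKM + 1 scale 1 was at least 25% higher (background 15.7%) and 6 were at least 20% lower (background 12.2%). At 1.5-fold 0 were higher (background 4.46%) and 3 were lower (background 5.29%), namely Hkdc1, Gpd1 and Ppp1r3b.

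Hkdc1, a hexokinase-like gene, stood at 27.5 and 12.7 FPKM, 2.17-fold lower in the Pkm2-/- library (95% counting interval 2.01 to 2.35). It lies 3228 bases from Hk1, whose level was 1.09-fold higher, and its share of the hexokinase sum was 26.0% and 13.5%. Gpd1, which turns dihydroxyacetone phosphate from glycolysis into glycerol-3-phosphate, stood at 16.5 and 7.63 FPKM, 2.16-fold lower (1.93 to 2.43). Ppp1r3b, a glycogen-targeting subunit of protein phosphatase, stood at 8.33 and 5.08 FPKM, 1.64-fold lower (1.45 to 1.85). The member of this set that was higher was Pgm2l1, a glucose-1,6-bisphosphate synthase, at 2.98 and 4.18 FPKM. The most abundant was Gfpt1, which opens the hexosamine branch, at 202 and 224 FPKM. Among the other glycogen genes the most abundant was Gsk3a, a kinase that phosphorylates glycogen synthase, at 22.3 and 25.5 FPKM.

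The cell make-up of the libraries was checked with markers. All 9 epithelial markers were measured, summing to 6343 and 7278 FPKM, among them Epcam at 584 and 712 FPKM and Krt20 at 331 and 333 FPKM. T cell markers (8 of 8 listed) summed to 14.6 and 69.0 FPKM, with Gzma at 3.34 and 25.03 FPKM and Cd3e at 2.05 and 7.52 FPKM. Macrophage and dendritic cell markers (7 of 7 listed) summed to 7.53 and 10.7 FPKM and fibroblast markers (5 of 5 listed) to 4.34 and 1.35 FPKM. B and plasma cell markers (5 of 5 listed) summed to 1.03 and 2.90 FPKM, with Jchain at 0.605 and 2.15 FPKM. Endothelial markers (4 of 4 listed) summed to 1.42 and 0.825 FPKM and smooth muscle markers (4 of 4 listed) to 0.0939 and 0.248 FPKM. Of 5 neutrophil markers S100a8, S100a9 and Mpo were unlisted, and the 2 listed ones summed to 25.5 and 13.2 FPKM. Nearly all of that was Ly6g, at 25.4 and 13.1 FPKM, with Csf3r at 0.0144 and 0.0531 FPKM. The part of these other cells in the levels of the enzymes was not tested.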

How the data were processed

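FPKM values were deposited by the authors, 1 table per library with a gene symbol, an Ensembl gene ID and a locus. The unit is an inference from the tools, as no header names it. Alignment and quantification tools named, per the submitters' processing notes, are Cufflinks 2.2.1, Cuffdiff in versions 2.2.1 and 1.3.0, Bowtie2 in version 2.2.9 and TopHat2 in version 2.1.1. The notes name build mm8, but 99.96% of the loci of GENCODE M21 genes overlapped those genes on GRCm38, which is used here. Only values above 0 are listed, and an unlisted gene was taken as 0. The sources used here state neither strand use nor read length.

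Values of 34 symbols with several IDs were summed, none of them among the 36 enzymes. FPKM depends on the mapped total, and mitochondrial genes made up 16.8% and 15.1% of the FPKM sum. Fold is the plain FPKM ratio, and counts use log2 of FPKM + 1 with a mean of at least 1 FPKM. The worth of 1 fragment was the most frequent low value of FPKM times length in single-transcript genes over 1500 bases. Counting intervals (95%, Clopper-Pearson) rest on it and on the longest transcript, so they are approximate, and they were tested on simulated data. Where shorter transcripts of a gene prevail, the longest one overstates its fragments and the interval is too narrow. Python 3.11.15, pandas 2.3.3 and scipy 1.17.1 were used. All 36 enzymes are named, with partners at least 1.5-fold apart, the most abundant of each family, and Pkm. The values of 1 gene are not reported here, and it enters no isozyme or step sum. The members and lists were chosen with earlier results of these data known, and other partner genes named beside Khk, Hkdc1 or Gfpt1 were chosen after their values were seen.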

Additional observations from a re-analysis of the deposited data

How the results depend on the processing

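With 1 library per genotype no library could be left out, and no paired analysis was possible because each group has 1 sample. Under 8 alternatives (pseudocounts of 0.1 and 5, no filter, a mean of at least 5 FPKM, equal medians, equal upper quartiles, equal nuclear sums, and summing with near-identical copies), all but 4 of the 35 measured enzymes kept the sign of their log2 ratio wherever they were measured. Aldoa (-0.04 to 0.02), Eno1 (-0.02 to 0.05), Taldo1 (-0.06 to 0.01) and Tkt (-0.07 to 0.00) did not. Equal medians lowered the median of all genes from 0.06 to 0.00. The count of enzymes at least 1.5-fold higher, Rpia alone, was 0 with a pseudocount of 5, equal medians or equal upper quartiles. Over all settings the count at least 25% higher ran from 2 to 4, that at least 20% lower from 4 to 8 and that at least 1.5-fold lower from 2 to 4. The count at least 2-fold apart, Pfkfb4 alone, was 0 with a pseudocount of 5, a scale that shrinks low values by construction. The log2 ratio of Pfkfb4 ranged from -1.42 to -0.91, that of Pgm2 from -0.80 to -0.65 and that of Rpia from 0.51 to 0.61. With the 36 enzymes alone as the families, Pgm2 held 50.3% and 37.7% and Hk1 46.6% and 48.9%. Depth limits Eno2, Fbp1 and Pygl most.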
